A study of Mus musculus with 204 samples.

Results

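The soleus, a postural calf muscle, was compared with the extensor digitorum longus (EDL), a muscle of the shin that lifts the toes, in lean mice. All libraries of lean soleus (5) and lean EDL (4) were taken by their titles from the 204 libraries of a mouse tissue atlas, and of the 13153 genes in the table the 1622 with a mean of at least 10 CPM (reads of a gene per 1000000 reads of the library) over these 9 libraries were tested. Soleus lean mice and EDL lean mice were wild-type C57BL/6J males on chow with 13.1% fat. The same muscles of diet-induced obese (DIO) males, which ate a diet with 60% fat for 10 weeks starting at 4 weeks of age, served as a repeat of the contrast (5 soleus and 5 EDL libraries), and 5 libraries of lean red gastrocnemius served as another calf muscle. The labels put the mice at 6 to 12 weeks of age when they were obtained, and the age at dissection is not given in the sources used here. Each library came from RNA of a frozen piece of muscle, so fewer cells of a type and less RNA per cell cannot be told apart in any value below.

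Skeletal muscle is built of fibres of several types. Slow fibres contract slowly, resist fatigue and draw most of their energy from the oxidation of fat and carbohydrate in mitochondria. Fast fibres carry other isoforms of the myosin, troponin and tropomyosin proteins, release and take up calcium faster, and rely more on glycogen and glycolysis. In the mouse the soleus is rich in slow and oxidative fibres, while the EDL consists almost wholly of fast fibres, and the pair is the textbook contrast for fibre type.

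The table held genes of chromosomes 1, 2, 3 and X and of the first 40.3 Mb of chromosome 4, so the main myosin heavy chain genes and many other fibre type genes were not analysed here. Library totals were 24.5 to 29.1 M reads in soleus and 16.3 to 20.9 M in EDL, of which 17.4 to 18.6% in soleus and 15.3 to 18.1% in EDL fell on the genes of the table. The soleus and gastrocnemius libraries carry sample numbers of 1 series, which also holds other tissues, and the EDL libraries those of another, so number series and muscle cannot be told apart in soleus against EDL. Within EDL the lean libraries fell into pairs. An index of 10 genes, chosen in earlier work on these data, sets 5 genes (Rpl39, Rpl22l1, Cops9, Atp5e and Ndufc1) against 5 others (Kantr, Ncoa6, S100a1, Ubap2l and Dynlrb1) as the difference of their mean log2(CPM + 1). The index was -0.39 in EDL 1 and -0.23 in EDL 3 but 1.96 in EDL 2 and 1.92 in EDL 4, with the 5 soleus libraries between these pairs at 0.78 to 1.11. The soleus libraries were parted by another gene, Ttn (titin, the molecular spring of the sarcomere), at 6694, 6918, 15818, 16125 and 15190.2 CPM in soleus 1 to 5, against 5664, 6461, 4863 and 4142 CPM in EDL 1 to 4. EDL 3 also had the highest levels of neutrophil and erythroid genes. The neutrophil gene S100a8 was at 0.204, 0.238, 0.399, 0.117 and 0.310 CPM in soleus and 2.03, 32.6, 203 and 0.7101 CPM in EDL, and the summed level of 2 erythroid genes (Alas2 and Epb42) was 2.82 to 7.52 CPM in soleus and 2.09 to 50.6 CPM in EDL, with the highest value in EDL 3. Values without the libraries of high Ttn, low index or high index are given where they end a named gene's call, and list counts without soleus 3, 4 and 5 where they differ.

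**Figure D1:**
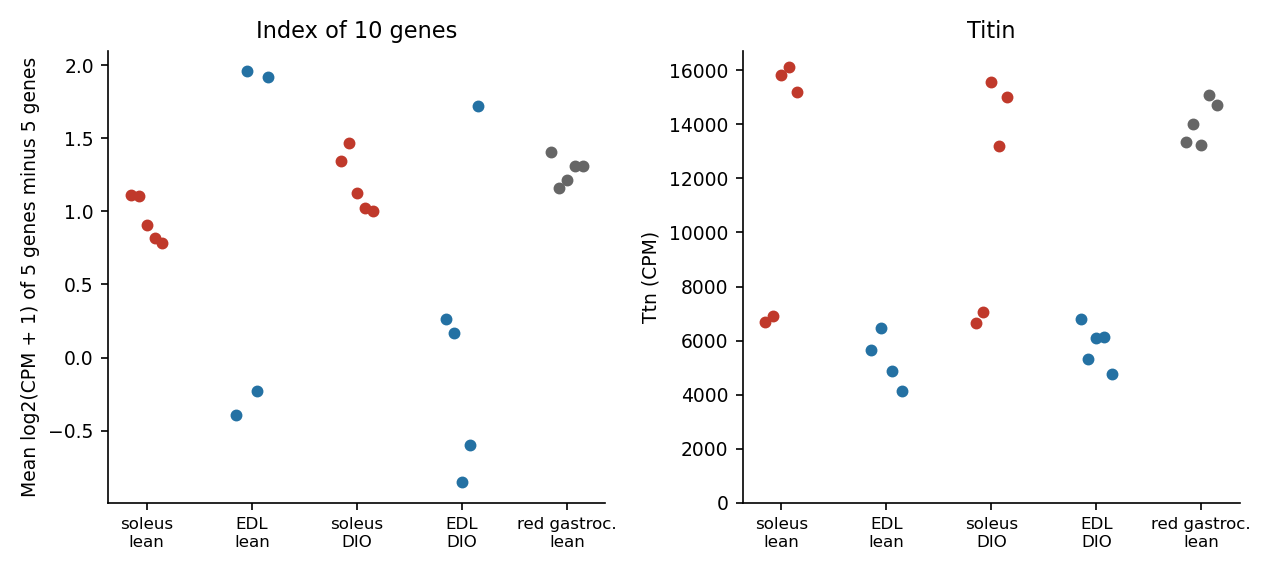
The index of 10 genes (left, log2 units) and the level of Ttn (right, CPM) in each library, with soleus in red, EDL in blue and red gastrocnemius in grey. The 4 lean EDL libraries form pairs near -0.39 and 1.96 on the index, and 3 of the 5 lean soleus libraries lie at 15190.2 CPM of Ttn or more, where no EDL library lies.

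Of the 1622 genes, 965 (59.5%) passed an adjusted p of 0.05 in limma on log2(CPM + 1), 739 (45.6%) higher and 226 (13.9%) lower in soleus. The median gene was higher in soleus by 0.31 on the log2 scale. After each library was divided by a median-of-ratios factor, which puts the median gene near 0 (0.02) and moved it by 0.29, 927 genes passed (57.2%), and they split evenly into 468 higher (28.9%) and 459 lower (28.3%). Without soleus 3, 4 and 5, the libraries of high Ttn, 490 genes passed as deposited in a fit with fewer libraries, 360 higher and 130 lower. Of these, 483 were among the 965. As deposited, 642 genes were higher and 329 lower without EDL 1 and 3, and 884 were higher and 207 lower without EDL 2 and 4. The 468 higher genes and 226 of the lower ones passed on both scales, and no gene passed in opposite directions. The log2 differences given below are soleus minus EDL ± standard error (SE) after this rescaling, so they are relative to the median gene, and a single gene is called higher or lower only where it passed on both scales, while counts of a list are given for each scale. Levels are CPM as deposited, given library by library or as mean ± SD over the libraries of a group (n = 5, or 4 for lean EDL). Of the genes that passed on both scales, 114 were higher and 92 lower in soleus by at least 2-fold. In 803 genes (49.5%) all libraries of 1 muscle lay above all libraries of the other, with soleus above in 37.2% and below in 12.3% of genes. The 12 largest rises and the 12 largest falls named below were taken only from genes of this kind. Lack of overlap in them is therefore not a further result. With most tested genes called, a call alone sets no gene apart. Each list count below is to be read against the share or count of all genes under the same setting. The labels do not say which libraries come from which mouse, and the p-values measure the spread between libraries.

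**Figure D2:**
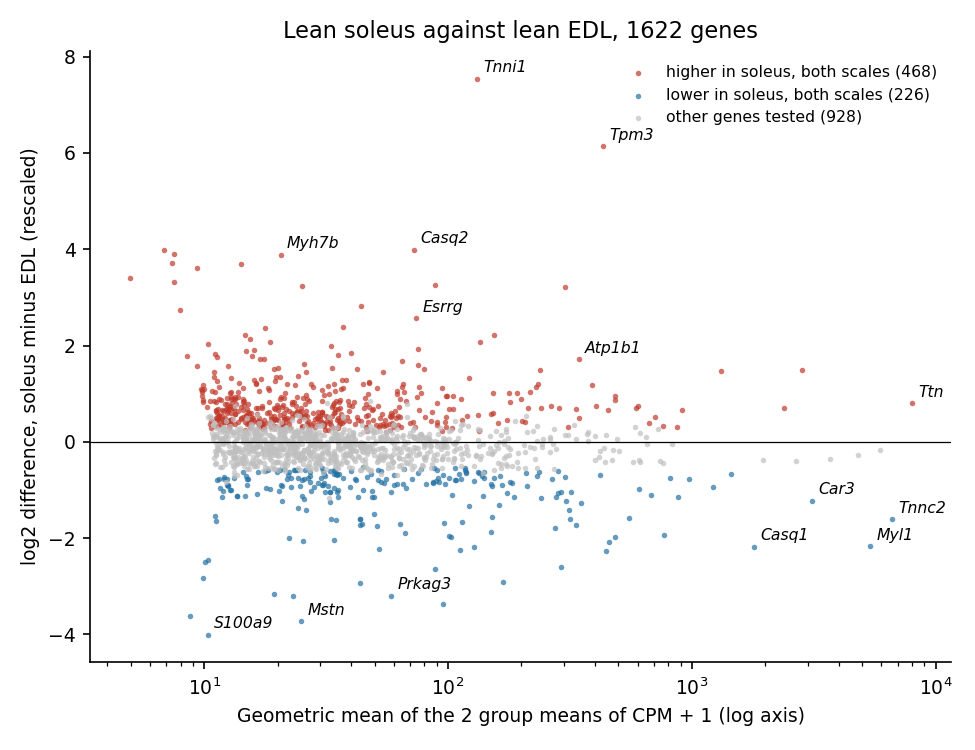
Rescaled log2 difference, soleus minus EDL, of each of the 1622 genes against its mean level on a log axis (CPM + 1), with genes that passed on both scales in red (468 higher in soleus) and blue (226 lower). Tnni1 at 7.54 and Tpm3 at 6.14 stand above all other genes tested, and Mstn, S100a9 and Kcnc4 lie among the lowest.

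The contractile proteins showed the widest gap. All 5 tested genes of the slow and cardiac contractile list were higher in soleus and all 3 of the fast list were lower, on both scales and in each alternative that left out libraries of high Ttn, low index or high index. Tnni1, the slow skeletal isoform of the inhibitory troponin subunit (chromosome 1, 135779434 to 135810989, plus strand, GRCm38), was at 1839, 1596, 1388, 1600.3 and 1545 CPM in the soleus libraries, against 3.998, 6.83, 1.29 and 27.04 CPM in EDL. The lowest soleus library was thus far above the highest EDL library, and the EDL libraries varied more among themselves, in proportion to their mean, than the soleus ones. The log2 difference was 7.54 ± 0.52, adjusted p = 4.4e-07. Tpm3, which encodes the slow-fibre tropomyosin (chromosome 3, 90072649 to 90100902, plus strand), had 3997, 4024, 3487, 3799 and 3702 CPM in soleus and 20.7, 50.4, 37.7 and 85.7 CPM in EDL, a log2 difference of 6.14 ± 0.25, adjusted p = 1.4e-08. EDL 4 was the highest EDL library for both genes, and no EDL library came near the soleus range. Tpm3 also makes non-muscle tropomyosins from other starts, which a count per gene does not separate.

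Myoz2, the calsarcin of slow fibres and heart that ties calcineurin to the Z disc, was at 1097, 1015, 947, 983 and 1044 CPM in soleus and 86.6, 96.0, 73.2 and 99.9 CPM in EDL (log2 difference 3.21 ± 0.11, adjusted p = 7.5e-09). Both groups were tight and did not overlap. Myh7b, a myosin heavy chain gene of slow fibres and heart, was at 50.8, 41.4, 117, 112 and 109 CPM in soleus and 1.78, 3.99, 2.82 and 6.92 CPM in EDL (log2 difference 3.89 ± 0.33, adjusted p = 2.3e-06). Its soleus values followed the split of Ttn, with soleus 1 and 2 below the other 3, yet all 5 lay above EDL. Actc1, cardiac actin, was low in both muscles but higher in soleus, at 33.0 ± 8.21 CPM in soleus and 7.48 ± 1.98 CPM in EDL, a log2 difference of 1.73 ± 0.23, adjusted p = 8.5e-05. The other 2 listed genes, Tnnt2 and Mybpc3, were under the level filter.

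On the fast side, Myl1, the fast essential myosin light chain (chromosome 1, 66924295 to 66945404, minus strand), was at 2902, 2820.1, 2715, 2844 and 2805 CPM in soleus and 10089.9, 10999, 9869.7 and 10329 CPM in EDL. The log2 difference was -2.17 ± 0.09, adjusted p = 1.7e-08, and the groups were far apart. Tnnc2, the calcium-binding troponin subunit of fast fibres, was at 4576, 4448, 3748, 4097 and 4254 CPM in soleus, against 10679, 9731, 9756 and 11689 CPM in EDL (log2 difference -1.61 ± 0.12, adjusted p = 8.5e-07). Mylk2, the kinase that phosphorylates the regulatory myosin light chain, averaged 244 ± 39.6 CPM in soleus and 859 ± 228 CPM in EDL (log2 difference -2.09 ± 0.14, adjusted p = 3.9e-07). Tnni1 and Tpm3 were thus at under 100 CPM in every EDL library, while the fast genes stayed above 200 CPM in every soleus library.

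**Figure D3:**
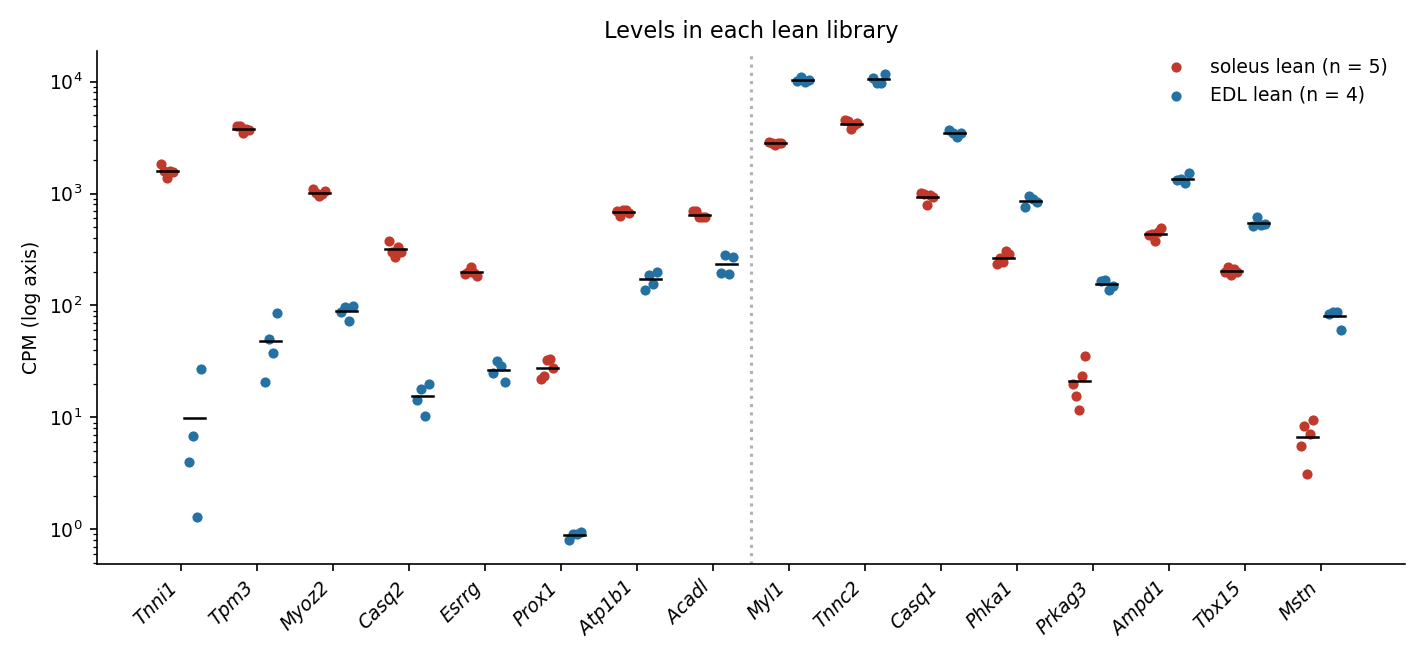
CPM on a log axis of 16 genes in each lean library, soleus in red to the left of EDL in blue, with a black bar at each group mean (5 soleus and 4 EDL libraries). The 8 genes left of the dotted line are higher in soleus and the 8 right of it are lower, with no overlap of libraries in any of the 16, and the widest gap is that of Tnni1 (1594 against 9.79 CPM).

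Genes of the sarcomere scaffold were mixed. Of 20 tested, 9 passed as higher and none as lower as deposited, and 7 as higher and 3 as lower after rescaling. Among all genes tested, 45.6% were higher and 13.9% lower as deposited, and 28.9% and 28.3% after rescaling. The higher count as deposited was thus near the share of all genes. Without the soleus libraries of high Ttn, 6 passed as higher and none as lower as deposited, beside 360 higher and 130 lower of all 1622 genes. The largest difference was that of Fhl2, a LIM domain protein best known in heart, which was at 24.2, 33.8, 32.7, 35.3 and 23.3 CPM in soleus and 0.246, 1.25, 1.003 and 0.888 CPM in EDL (log2 difference 3.89 ± 0.20, adjusted p = 4.8e-08). Its relative Fhl1, an abundant LIM protein of skeletal muscle linked to fibre size, averaged 5196 ± 533 CPM in soleus and 1532 ± 341 CPM in EDL (log2 difference 1.49 ± 0.12, adjusted p = 1.2e-06). Neither gene had overlapping groups, though Fhl2 reached the 10 CPM filter only through soleus. Pdlim5, a Z-disc adaptor, was higher in soleus by a log2 difference of 0.69 ± 0.11, adjusted p = 0.00028, Mtm1, the phosphatase mutated in X-linked myotubular myopathy, by a log2 difference of 0.74 ± 0.12, adjusted p = 0.00026, and Klhl41, which stabilises nebulin, by a log2 difference of 0.31 ± 0.11, adjusted p = 0.036. Ttn itself was higher by a log2 difference of 0.81 ± 0.29, adjusted p = 0.031, but the call did not hold with soleus 1 and 2 alone. As deposited, the difference was 1.11 with all libraries and 0.39 (adjusted p = 0.13) with soleus 1 and 2 alone. Soleus 3, 4 and 5 were set apart by their Ttn level, so a smaller difference without them follows from that choice. Soleus 1 and 2 still lay above every EDL library.

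Calcium handling showed opposite differences in the RNA of 2 calsequestrin genes, whose proteins store calcium inside the sarcoplasmic reticulum. Casq2, the cardiac and slow isoform (chromosome 3, 102086415 to 102146514, plus strand), was at 379, 302, 269.7, 337 and 299.7 CPM in soleus and 14.4, 17.99, 10.4 and 20.00 CPM in EDL (log2 difference 3.99 ± 0.17, adjusted p = 1.4e-08). Casq1, the fast isoform (chromosome 1, 172209894 to 172219868, minus strand), was at 1015, 1000.3, 795, 967 and 927 CPM in soleus and 3675, 3466, 3173 and 3511 CPM in EDL (log2 difference -2.18 ± 0.13, adjusted p = 1.3e-07). The groups were apart in both genes, in opposite directions. Casq1 still lay above Casq2 in every soleus library, and per kb of exon it averaged 482 against 116 CPM there. Of the 13 tested calcium genes, 3 were higher and 8 lower as deposited, and 1 higher (Casq2) and 9 lower after rescaling. Without the soleus libraries of high Ttn, 1 was higher and 7 were lower as deposited. The lower ones included Jph1 and Jph2, which hold the sarcoplasmic reticulum against the plasma membrane at the triad. Jph1 averaged 199.8 ± 22.01 CPM in soleus and 494 ± 65.1 CPM in EDL (log2 difference -1.60 ± 0.15, adjusted p = 5e-06), and Jph2 averaged 353 ± 23.7 CPM in soleus and 863 ± 138 CPM in EDL (log2 difference -1.58 ± 0.11, adjusted p = 4.4e-07). Ryr3, a calcium release channel that is minor in adult muscle, was at 3.06, 2.10, 3.23, 3.87 and 2.65 CPM in soleus and 27.6, 22.1, 33.2 and 12.4 CPM in EDL (log2 difference -2.83 ± 0.28, adjusted p = 7.3e-06). All its EDL libraries lay above soleus, with EDL 4 the lowest of them, and it reached the 10 CPM filter only through EDL. Ppp3ca, a catalytic subunit of calcineurin, the phosphatase that promotes the slow programme, was lower in soleus at 138 ± 5.10 CPM in soleus and 251 ± 31.5 CPM in EDL (log2 difference -1.15 ± 0.13, adjusted p = 1.9e-05).

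The sequences just upstream of 7 genes are shown because they differed by at least 4-fold after rescaling, 4 of them higher and 3 lower in soleus, and include the calsequestrin pair; Esrrg and Mstn are described further on. They are the 250 bases before a RefSeq start (GRCm38.p6), on the strand of the gene. Tnni1 had 2 RefSeq promoters and Esrrg 4, and only that nearest the GENCODE start is shown for each. Capitals mark E-boxes (CANNTG, either strand, the motif bound by MyoD-family factors) and matches to the MEF2 motif (either strand); none of the MEF2 matches overlaps an E-box. Among all 32851 RefSeq mouse promoters of this length, 66.2% hold an E-box and 2.92% a MEF2 match. The genes higher in soleus are Tnni1 (chr1:135799171-135799420, plus strand), Myoz2 (chr3:123034988-123035237, minus strand), Casq2 (chr3:102086165-102086414, plus strand) and Esrrg (chr1:187608756-187609005, plus strand). The genes lower in soleus are Casq1 (chr1:172219896-172220145, minus strand), Myl1 (chr1:66945057-66945306, minus strand) and Mstn (chr1:53061390-53061639, plus strand).
Tnni1: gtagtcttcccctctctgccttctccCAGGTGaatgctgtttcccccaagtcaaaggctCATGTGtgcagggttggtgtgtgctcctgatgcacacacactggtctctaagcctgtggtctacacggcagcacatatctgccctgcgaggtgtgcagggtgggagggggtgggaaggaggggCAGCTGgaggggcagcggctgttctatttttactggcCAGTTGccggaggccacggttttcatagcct
Myoz2: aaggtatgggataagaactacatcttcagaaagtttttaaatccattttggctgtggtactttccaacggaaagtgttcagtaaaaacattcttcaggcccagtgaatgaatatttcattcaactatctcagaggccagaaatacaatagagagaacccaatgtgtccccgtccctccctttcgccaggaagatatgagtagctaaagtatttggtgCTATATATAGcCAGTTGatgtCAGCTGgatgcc
Casq2: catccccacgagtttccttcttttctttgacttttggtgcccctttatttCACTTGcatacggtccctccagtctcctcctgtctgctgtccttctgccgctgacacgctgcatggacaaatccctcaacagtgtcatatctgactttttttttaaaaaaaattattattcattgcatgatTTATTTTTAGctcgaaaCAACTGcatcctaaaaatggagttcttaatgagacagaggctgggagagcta
Esrrg: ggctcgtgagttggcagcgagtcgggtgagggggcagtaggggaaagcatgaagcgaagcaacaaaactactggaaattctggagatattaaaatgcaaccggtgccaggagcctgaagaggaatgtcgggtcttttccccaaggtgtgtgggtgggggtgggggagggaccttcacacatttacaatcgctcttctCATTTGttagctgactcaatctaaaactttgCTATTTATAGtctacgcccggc
Casq1: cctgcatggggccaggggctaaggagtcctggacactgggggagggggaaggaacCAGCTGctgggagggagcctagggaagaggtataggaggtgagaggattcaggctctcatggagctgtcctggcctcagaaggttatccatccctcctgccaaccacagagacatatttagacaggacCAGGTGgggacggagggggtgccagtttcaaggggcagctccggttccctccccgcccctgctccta
Myl1: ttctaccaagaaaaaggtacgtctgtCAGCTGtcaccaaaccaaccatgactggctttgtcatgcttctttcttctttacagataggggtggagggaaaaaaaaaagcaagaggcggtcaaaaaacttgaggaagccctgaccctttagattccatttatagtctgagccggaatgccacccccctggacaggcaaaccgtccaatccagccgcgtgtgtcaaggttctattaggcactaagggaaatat
Mstn: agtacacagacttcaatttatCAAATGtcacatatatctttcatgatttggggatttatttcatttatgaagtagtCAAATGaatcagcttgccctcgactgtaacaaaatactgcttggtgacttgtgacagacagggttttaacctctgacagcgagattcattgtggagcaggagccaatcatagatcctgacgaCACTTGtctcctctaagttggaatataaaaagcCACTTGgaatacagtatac
Myoz2, Casq2 and Esrrg each had 1 MEF2 match, which began 33, 69 and 22 bases before the start. Tnni1, Casq1, Myl1 and Mstn had none in this window, and every one of the 7 had at least 1 E-box. The genes were chosen for their levels, so these matches describe the letters only. The RefSeq start used for Tnni1 lies 19987 bases inside the gene as GENCODE draws it.

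In energy metabolism, several genes of glycogen use and glycolysis were lower in soleus. Of 10 tested genes, 5 were lower and 2 higher as deposited, and 6 lower and 2 higher after rescaling. As deposited but without soleus 3, 4 and 5, 4 were lower and 1 higher. The greatest difference was that of Prkag3, the AMPK (AMP-activated protein kinase) subunit of glycolytic muscle, at 19.9, 15.4, 11.6, 23.6 and 35.0 CPM in soleus and 165, 167, 136 and 149 CPM in EDL (log2 difference -3.19 ± 0.25, adjusted p = 1.1e-06). Its partner Prkab2, the muscle beta subunit that binds glycogen, was at 142, 137, 107, 124 and 143 CPM in soleus and 622, 726, 589.9 and 625 CPM in EDL (log2 difference -2.59 ± 0.12, adjusted p = 4.4e-08). Both subunits were below every EDL library in every soleus library. Phka1, the muscle regulatory subunit of phosphorylase kinase, which switches on glycogen breakdown, averaged 268 ± 30.5 CPM in soleus and 865 ± 84.5 CPM in EDL (log2 difference -1.99 ± 0.10, adjusted p = 4.6e-08). Gpd2, the mitochondrial enzyme of the glycerol phosphate shuttle that reoxidises glycolytic NADH, averaged 38.4 ± 8.45 CPM in soleus and 198 ± 21.2 CPM in EDL (log2 difference -2.65 ± 0.13, adjusted p = 4.6e-08). Pfkfb3, which makes the activator of phosphofructokinase, was among the 12 largest falls at 67.8 ± 19.4 CPM in soleus and 412 ± 51.6 CPM in EDL (log2 difference -2.91 ± 0.18, adjusted p = 2.2e-07).

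The 2 genes that went the other way were Pygb and Pfkfb2. Pygb, the brain isoform of glycogen phosphorylase, was at 16.9, 15.01, 14.4, 14.0 and 16.00 CPM in soleus and 3.38, 5.01, 6.02 and 5.80 CPM in EDL (log2 difference 1.19 ± 0.14, adjusted p = 2.5e-05). Pfkfb2, the heart isoform of the enzyme encoded by Pfkfb3, was at 8.12, 9.34, 23.9, 36.7 and 36.4 CPM in soleus and 1.78, 4.67, 4.35 and 6.33 CPM in EDL (log2 difference 1.77 ± 0.43, adjusted p = 0.0044). Its soleus values followed the split of Ttn, and without the 3 libraries of high Ttn it did not pass as deposited (adjusted p = 0.078). The as-deposited difference was 0.96 there and 2.01 with all libraries.

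Of the genes for entry of pyruvate into mitochondria and the citric acid cycle, 8 of 10 tested were higher and none lower as deposited, and 4 were higher and none lower after rescaling. As deposited but without the soleus libraries of high Ttn, 4 were higher. Pdk1, a kinase that inhibits pyruvate dehydrogenase, was at 234, 216, 206, 203 and 204 CPM in soleus and 52.8, 84.4, 65.3 and 72.8 CPM in EDL (log2 difference 1.33 ± 0.10, adjusted p = 6.4e-07). Pdha1, the catalytic subunit that this kinase inhibits, averaged 1260.4 ± 63.6 CPM in soleus and 658 ± 142 CPM in EDL (log2 difference 0.66 ± 0.11, adjusted p = 0.0003). Enzyme and inhibitor were thus both higher in soleus, with no overlap of libraries in either. The other 2 that passed on both scales were Pdhx, a structural subunit of the same complex, by a log2 difference of 0.23 ± 0.09, adjusted p = 0.047, and Aco1, the cytosolic aconitase, by a log2 difference of 0.34 ± 0.11, adjusted p = 0.021. Aco1 missed the threshold without the soleus libraries of high Ttn (adjusted p = 0.061). Its as-deposited difference was 0.65 ± 0.23 there and 0.62 ± 0.15 with all libraries, so the SE grew and the difference did not shrink.

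Of 13 tested genes of fatty acid oxidation, 9 were higher and 1 lower in soleus as deposited, and 6 higher and 2 lower after rescaling. As deposited, 6 were higher and 1 lower without the soleus libraries of high Ttn, and the counts were the same without EDL 1 and 3. Acadl, the long-chain acyl-CoA dehydrogenase, was at 703, 698, 611, 615 and 621 CPM in soleus and 194, 283, 191 and 269.5 CPM in EDL (log2 difference 1.19 ± 0.12, adjusted p = 7.2e-06). Acadm, the medium-chain dehydrogenase, was at 828, 783, 652, 692 and 739.7 CPM in soleus and 268, 376, 241 and 387 CPM in EDL (log2 difference 0.94 ± 0.14, adjusted p = 0.00014). The groups were apart in both, and EDL 2 and 4 were above EDL 1 and 3. Hadh, which carries out the next oxidation, averaged 339 ± 12.02 CPM in soleus and 137 ± 35.1 CPM in EDL (log2 difference 1.04 ± 0.12, adjusted p = 3.2e-05). Etfdh, which passes the electrons of these dehydrogenases to the respiratory chain, averaged 375 ± 10.7 CPM in soleus and 140.1 ± 25.00 CPM in EDL (log2 difference 1.13 ± 0.10, adjusted p = 3.6e-06). Decr1, needed for unsaturated fatty acids, averaged 237 ± 20.5 CPM in soleus and 96.8 ± 27.8 CPM in EDL (log2 difference 1.022 ± 0.14, adjusted p = 0.00011), and Abcd3, a peroxisomal transporter, averaged 131 ± 11.1 CPM in soleus and 61.0 ± 11.7 CPM in EDL (log2 difference 0.81 ± 0.09, adjusted p = 2.1e-05). The 2 genes that were lower after rescaling, named here after their values were seen, were the ligase Acsl4 and the carnitine acetyltransferase Crat, of which only Acsl4 also passed as deposited.

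Subunits of the respiratory chain and ATP synthase depended on which EDL libraries were used. Of 18 tested, 9 were higher and none lower as deposited, and 5 higher and 1 lower after rescaling. The higher counts were near the shares of all genes tested, 45.6% as deposited and 28.9% after rescaling. Without EDL 1 and 3, which have the low index, 9 were higher and 4 lower, and without EDL 2 and 4 17 were higher and none lower. Among all 1622 genes the counts moved the same way, with 642 higher and 329 lower without EDL 1 and 3. Without EDL 2 and 4, 884 of all genes were higher and 207 lower. Without the soleus libraries of high Ttn, 7 were higher and none lower, beside 360 higher and 130 lower of all genes. Atp5g3, which encodes the c subunit of the ATP synthase rotor, was at 724, 761, 689, 699 and 633 CPM in soleus and 234, 433, 187 and 483 CPM in EDL (log2 difference 0.88 ± 0.22, adjusted p = 0.0051). Ndufs1, the largest subunit of complex I, was at 617, 635, 638, 643 and 588 CPM in soleus and 239, 421, 244 and 418 CPM in EDL (log2 difference 0.67 ± 0.14, adjusted p = 0.0017). Even the EDL libraries of high index were below soleus in these 2 genes. Sdhc, a membrane anchor of complex II, was higher by a log2 difference of 0.69 ± 0.18, adjusted p = 0.0068, Ndufb3 of complex I by a log2 difference of 0.54 ± 0.11, adjusted p = 0.0011 and Atp5c1, the gamma subunit of ATP synthase, by a log2 difference of 0.33 ± 0.12, adjusted p = 0.03. Atp5f1 missed the threshold after rescaling, at 0.31 ± 0.13, adjusted p = 0.061. The 2 subunits inside the index itself, which a split by the index moves by construction, behaved otherwise. Ndufc1 was at 106, 109, 96.1, 95.9 and 92.0 CPM in soleus and 32.2, 132, 32.3 and 140.0 CPM in EDL, so the soleus libraries lay between the EDL pairs. Atp5e, at 259, 267, 233, 228 and 229.9 CPM in soleus and 89.4, 296, 91.6 and 337 CPM in EDL, did the same, and neither gene passed with all libraries. With the index as a covariate, 15 of the 18 were higher and none lower as deposited, and 7 higher and 1 lower on rescaled CPM. Of all 1622 genes, 835 were higher and 280 lower with this covariate as deposited, and 527 were higher and 522 lower on rescaled CPM.

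All 4 tested genes of branched-chain amino acid breakdown were higher in soleus on both scales and in each alternative that left out a set of libraries. Ivd, which oxidises the leucine product isovaleryl-CoA, was at 269.9, 252, 246.8, 243 and 274 CPM in soleus and 91.2, 136, 76.3 and 194 CPM in EDL (log2 difference 0.84 ± 0.20, adjusted p = 0.0036). Every soleus library was above every EDL library. The others were Hibch of valine breakdown (log2 difference 0.69 ± 0.10, adjusted p = 0.00017), Mccc1 of leucine breakdown (log2 difference 0.42 ± 0.08, adjusted p = 0.0012) and Dbt, a core subunit of the shared ketoacid dehydrogenase (log2 difference 0.39 ± 0.11, adjusted p = 0.0094). Of the purine and creatine list 2 genes were tested. Ampd1, the muscle AMP deaminase that is active when ATP is spent faster than it is made, was at 427, 437, 377, 456 and 488 CPM in soleus and 1315, 1357, 1252 and 1522 CPM in EDL (log2 difference -1.94 ± 0.11, adjusted p = 8e-08). Slc6a8, the creatine transporter, averaged 208 ± 41.6 CPM in soleus and 111 ± 22.9 CPM in EDL (log2 difference 0.60 ± 0.14, adjusted p = 0.0033). It did not pass as deposited without the soleus libraries of high Ttn (adjusted p = 0.068). The as-deposited difference was 0.59 there and 0.90 with all libraries.

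Of the list of pumps, carriers and carbonic anhydrases 5 genes were tested, and the 3 pump and carrier genes were higher and 1 carbonic anhydrase lower in soleus on both scales. Without the soleus libraries of high Ttn, 2 were higher and 1 lower as deposited. Atp1b1, the beta subunit of the sodium pump, was at 704, 629, 715, 710.2 and 676 CPM in soleus and 139, 188, 157 and 201 CPM in EDL (log2 difference 1.71 ± 0.08, adjusted p = 4.6e-08). Every soleus library was above every EDL library. Slc16a1, the monocarboxylate carrier for lactate, was at 120.2, 119, 123, 131 and 121 CPM in soleus and 28.7, 52.5, 49.4 and 53.2 CPM in EDL (log2 difference 1.14 ± 0.11, adjusted p = 6.6e-06). EDL 1 was well below the other EDL libraries for this gene, and all 4 were below soleus. Car3, the muscle carbonic anhydrase, known as a protein of slow fibres in human and rat, was instead lower in soleus, at 2279, 2279, 1959.8, 2170.4 and 2606 CPM, against 5139, 4059, 4515 and 3527 CPM in EDL (log2 difference -1.22 ± 0.17, adjusted p = 8.8e-05). Car2, the carbonic anhydrase of red cells and many tissues, had overlapping groups, at 22.4, 27.3, 21.1, 23.6 and 24.0 CPM in soleus and 4.98, 17.3, 51.8 and 7.28 CPM in EDL (log2 difference 0.46 ± 0.48, adjusted p = 0.43). Its highest EDL value was in EDL 3, the library with the highest erythroid genes, and without EDL 3 it passed as higher as deposited (adjusted p = 0.0032). The phosphate carrier Slc20a1 had overlapping groups, at 9.14, 11.05, 36.3, 93.2 and 55.6 CPM in soleus and 4.98, 7.57, 10.2 and 8.76 CPM in EDL (log2 difference 1.52 ± 0.55, adjusted p = 0.035). It did not pass as deposited without soleus 3, 4 and 5 (adjusted p = 0.34), without EDL 1 (adjusted p = 0.060), without EDL 1 and 3 (adjusted p = 0.10) or without EDL 2 and 4 (adjusted p = 0.083).

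Among regulators of fibre type, 3 of 11 tested genes were higher and 3 lower as deposited, and 3 higher and 5 lower after rescaling. The shares of all genes tested were 45.6% higher and 13.9% lower as deposited, and 28.9% and 28.3% after rescaling. Prox1, a homeodomain factor that helps set up slow fibres in zebrafish and mouse, was at 22.2, 23.6, 32.3, 33.5 and 27.7 CPM in soleus and 0.800, 0.911, 0.908 and 0.947 CPM in EDL (log2 difference 3.70 ± 0.15, adjusted p = 1.4e-08). EDL was under 1 CPM in every library. Esrrg, the estrogen-related nuclear receptor that drives mitochondrial and vascular genes in oxidative muscle, was at 192, 198, 221, 194 and 182 CPM in soleus and 24.8, 31.7, 28.9 and 20.7 CPM in EDL (log2 difference 2.57 ± 0.13, adjusted p = 4.6e-08). Tbx15, a T-box factor of glycolytic fibres, was at 201, 219.8, 186, 210.2 and 197 CPM in soleus and 508, 620.1, 520.4 and 539 CPM in EDL (log2 difference -1.72 ± 0.09, adjusted p = 8e-08). All 3 genes had tight groups that were far apart, though Prox1 reached the 10 CPM filter only through soleus. Rxrg and Rxra, the retinoid X receptors that pair with other nuclear receptors, were lower in soleus, at 20.8 ± 3.48 CPM in soleus and 54.4 ± 9.74 CPM in EDL (log2 difference -1.63 ± 0.13, adjusted p = 1.1e-06) for Rxrg and 104 ± 4.29 CPM in soleus and 184 ± 16.9 CPM in EDL (log2 difference -1.12 ± 0.08, adjusted p = 5.5e-07) for Rxra. Nfatc2, a member of the family of factors that calcineurin activates, was higher, at 24.8 ± 3.56 CPM in soleus and 14.5 ± 2.98 CPM in EDL (log2 difference 0.46 ± 0.14, adjusted p = 0.018), with EDL 3 above the other EDL libraries.

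At the neuromuscular junction, 2 of 3 tested genes were higher and none lower as deposited, and 2 were higher and 1 lower after rescaling. As deposited, 1 was higher without soleus 3, 4 and 5. Chrna1, the alpha subunit of the acetylcholine receptor, averaged 45.4 ± 7.52 CPM in soleus and 23.9 ± 1.97 CPM in EDL (log2 difference 0.59 ± 0.14, adjusted p = 0.0031). Lrp4, the receptor for the nerve signal agrin, was higher by a log2 difference of 0.54 ± 0.18, adjusted p = 0.024, although EDL 2 overlapped soleus. As deposited, Lrp4 did not pass without the soleus libraries of high Ttn (0.74 ± 0.31, adjusted p = 0.11) or without EDL 1 and 3 (0.59 ± 0.24, adjusted p = 0.065). Its as-deposited difference with all libraries was 0.82 ± 0.22. Rapsn, which clusters the receptors, was at 20.3, 20.5, 18.2, 21.2 and 24.1 CPM in soleus and 17.9, 25.9, 18.1 and 33.3 CPM in EDL, and its difference passed as lower after rescaling (log2 difference -0.43 ± 0.14, adjusted p = 0.023) but not as deposited (adjusted p = 0.51).

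Growth signals held some of the largest differences. Of 8 tested genes, 1 was higher and 3 lower as deposited, and 1 higher and 4 lower after rescaling. Without the soleus libraries of high Ttn, 1 was higher and 2 lower as deposited. Mstn, myostatin, the secreted factor that limits muscle mass (chromosome 1, 53061640 to 53068079, plus strand), was at 5.55, 8.31, 3.11, 7.04 and 9.46 CPM in soleus and 84.3, 88.1, 88.2 and 60.4 CPM in EDL (log2 difference -3.73 ± 0.25, adjusted p = 4e-07). No soleus library reached 10 CPM and no EDL library was below 60. Igfbp5, which binds insulin-like growth factors, was at 210.4, 259, 203, 210.4 and 240.1 CPM in soleus and 1068, 791, 906 and 773 CPM in EDL (log2 difference -2.27 ± 0.17, adjusted p = 6.4e-07). The groups were again far apart. Btg2, an anti-proliferative immediate early gene, was the higher one, at 24.8, 28.6, 53.1, 25.7 and 33.6 CPM in soleus and 4.86, 9.79, 14.4 and 12.1 CPM in EDL (log2 difference 1.35 ± 0.25, adjusted p = 0.00079).

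**Figure D4:**
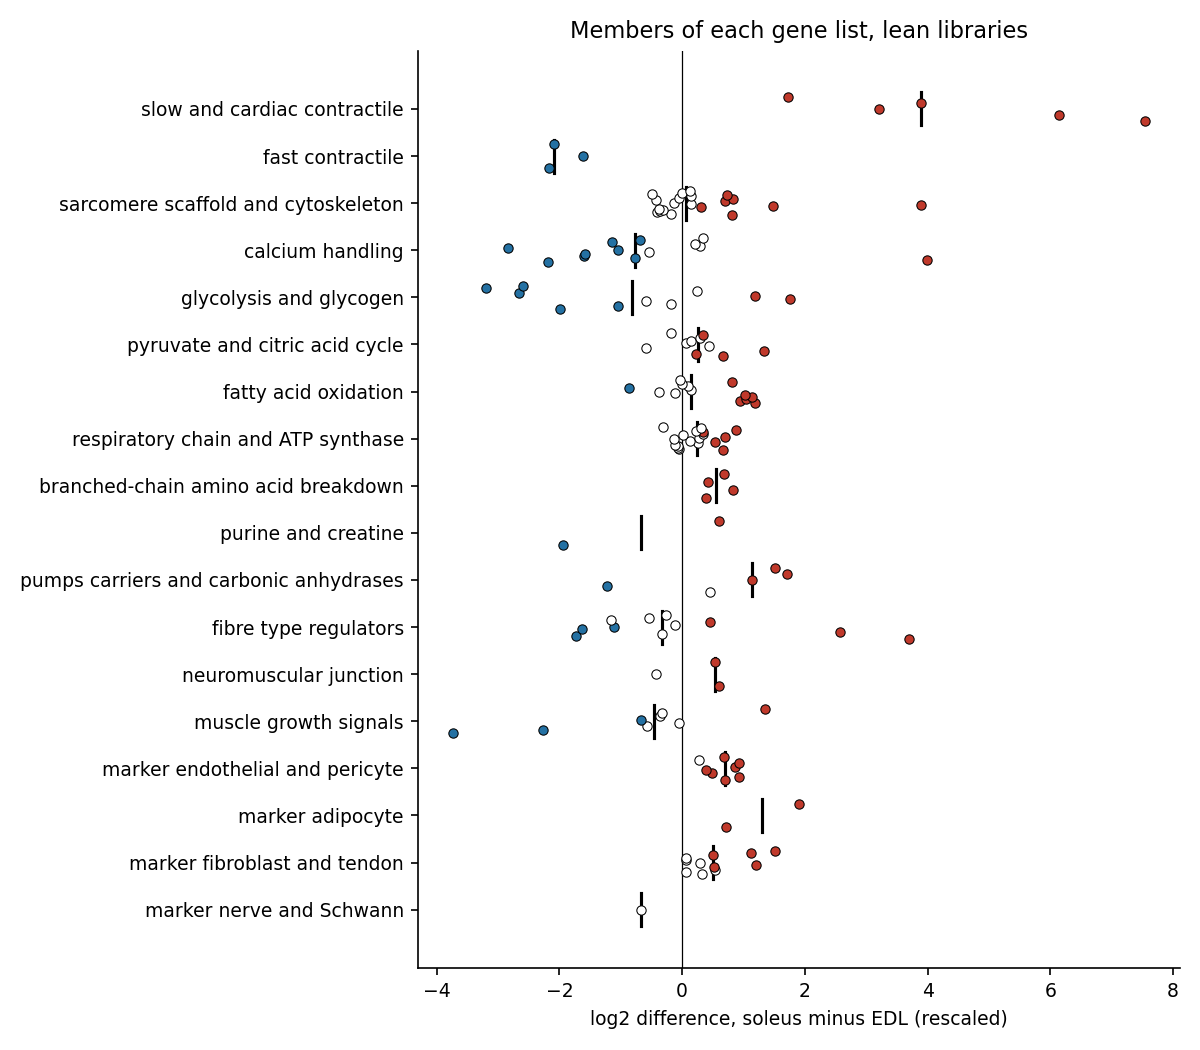
Rescaled log2 difference, soleus minus EDL, of each tested member of each gene list, with the list median as a black bar; filled points passed on both scales (red higher, blue lower in soleus) and open points did not. The slow and cardiac contractile list lies wholly right of 0 and the fast contractile list wholly left of it, while the respiratory chain genes gather around 0.

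The remaining reported genes among the 12 largest rises and the 12 largest falls belonged to no list. On the rising side, Pcp4l1, a small protein related to a calmodulin regulator, was at 271, 365, 292, 256 and 298 CPM in soleus and 19.4, 27.5, 18.3 and 35.6 CPM in EDL (log2 difference 3.25 ± 0.16, adjusted p = 4.6e-08). Klhl34, a kelch family member, averaged 80.2 ± 6.13 CPM in soleus and 6.89 ± 3.82 CPM in EDL (log2 difference 3.23 ± 0.23, adjusted p = 5.5e-07). Fam129a, a stress-responsive protein also known as Niban, averaged 123 ± 19.2 CPM in soleus and 14.5 ± 6.83 CPM in EDL (log2 difference 2.83 ± 0.23, adjusted p = 1.5e-06). Nceh1, a cholesterol ester hydrolase, averaged 92.5 ± 14.4 CPM in soleus and 13.7 ± 1.88 CPM in EDL (log2 difference 2.38 ± 0.12, adjusted p = 5.2e-08), and Pla2g12a, a secreted phospholipase, averaged 299.5 ± 14.1 CPM in soleus and 59.6 ± 19.8 CPM in EDL (log2 difference 2.07 ± 0.14, adjusted p = 4e-07). The rule that named these 5 genes required groups without overlap, so their separation is not a further result.

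On the falling side, Smox, the oxidase of the polyamine spermine, was at 38.96, 27.6, 18.2, 32.1 and 46.5 CPM in soleus and 301, 269, 213 and 302 CPM in EDL (log2 difference -3.36 ± 0.24, adjusted p = 5.7e-07). Kcnc4, a voltage-gated potassium channel, was at 6.81, 6.97, 5.14, 9.35 and 8.60 CPM in soleus and 57.3, 54.9, 54.3 and 84.3 CPM in EDL (log2 difference -3.21 ± 0.17, adjusted p = 5.2e-08). The rule that named the genes of this paragraph required groups without overlap, so their separation is not a further result. Gdap1, a mitochondrial outer membrane protein mutated in Charcot-Marie-Tooth disease, averaged 6.19 ± 1.61 CPM in soleus and 51.2 ± 8.06 CPM in EDL (log2 difference -3.15 ± 0.19, adjusted p = 1.5e-07), and Plcd4, a phospholipase C, averaged 16.6 ± 4.14 CPM in soleus and 107 ± 17.05 CPM in EDL (log2 difference -2.92 ± 0.18, adjusted p = 2.6e-07). S100a8 and S100a9, the calprotectin genes of neutrophils, were among the lowest genes, with nearly all of their EDL level in EDL 3 and EDL 2. S100a9 was at 0.245, 0.515, 0.359, 0.0391 and 0.344 CPM in soleus and 3.08, 61.8, 259 and 0.769 CPM in EDL. Their log2 differences were -3.61 ± 1.13, adjusted p = 0.018 for S100a8 and -4.01 ± 1.18, adjusted p = 0.013 for S100a9, and as deposited neither passed without EDL 2 (adjusted p = 0.068 and 0.056) or without the soleus libraries of high Ttn (adjusted p = 0.14 and 0.13). Without those soleus libraries the as-deposited differences were -3.49 and -3.75, against -3.46 and -3.84 with all libraries.

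Markers of other cell types moved with the muscle as well. Of 8 tested endothelial and pericyte markers, 7 were higher and none lower in soleus on both scales, and 5 were higher as deposited without the soleus libraries of high Ttn. The summed level of the 12 listed was 702 to 783 CPM in soleus and 302 to 430.5 CPM in EDL. Rgs5, a pericyte gene and the most abundant of them, was at 487, 509.8, 485, 421 and 454 CPM in soleus and 201, 247.1, 241 and 261 CPM in EDL (log2 difference 0.69 ± 0.09, adjusted p = 7.8e-05). The endothelial genes Cd93 (log2 difference 0.87 ± 0.17, adjusted p = 0.0011) and Egfl7 (log2 difference 0.92 ± 0.18, adjusted p = 0.0011) were higher as well. Of the adipocyte list 2 genes were tested and both were higher. Fabp4, a fatty acid carrier of fat cells and capillaries, averaged 298 ± 27.4 CPM in soleus and 149 ± 27.3 CPM in EDL (log2 difference 0.71 ± 0.12, adjusted p = 0.00032). It missed the threshold as deposited when lean and DIO libraries were fitted together (adjusted p = 0.066). G0s2, an inhibitor of lipolysis, averaged 33.4 ± 8.33 CPM in soleus and 6.44 ± 0.716 CPM in EDL (log2 difference 1.90 ± 0.20, adjusted p = 1.2e-05). The summed adipocyte level was 293 to 389.8 CPM in soleus and 129 to 196 CPM in EDL. Of 11 tested fibroblast and tendon genes, 6 were higher as deposited, 5 after rescaling and 3 as deposited without the soleus libraries of high Ttn, and none was lower. With all libraries, 45.6% of all genes tested were higher as deposited and 28.9% after rescaling. Without the soleus libraries of high Ttn, 360 of all 1622 genes were higher as deposited. The list summed to 531 to 879 CPM in soleus and 206 to 542 CPM in EDL, so its ranges overlapped. Fn1, fibronectin, was higher by a log2 difference of 1.204 ± 0.28, adjusted p = 0.0035 and Fbn1, fibrillin, by a log2 difference of 1.52 ± 0.28, adjusted p = 0.00076. The nerve and Schwann list summed to 21.1 to 97.9 CPM in soleus and 44.2 to 86.5 CPM in EDL, and its 1 tested member did not pass. The macrophage and lymphocyte list summed to 21.7 to 39.0 CPM in soleus and 9.78 to 76.6 CPM in EDL, with no member over the filter. The part of these cell types in the other differences was not tested.

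Ribosomal protein genes changed direction with the EDL libraries used. The index that pairs these libraries holds Rpl39 and Rpl22l1 and was chosen on these data, so part of this shift is built into the pairing. Of 18 tested, none was higher and 4 were lower as deposited, and none was higher and 7 were lower after rescaling. Without EDL 1 and 3, 14 were lower and none higher, while 642 of all 1622 genes were higher and 329 lower. Without EDL 2 and 4, 10 were higher and 2 lower, beside 884 and 207 of all genes. Without the soleus libraries of high Ttn none passed, beside 360 higher and 130 lower of all genes. With the index as a covariate, 3 were higher and 6 lower as deposited, and none was higher and 11 were lower on rescaled CPM. The counts of all genes with this covariate were 835 higher and 280 lower, and 527 higher and 522 lower on rescaled CPM. Gene length also moved with the difference. The median as-deposited log2 difference was 0.11 for the 30 genes with exons of under 1000 bases, 0.17 for 136 genes of 1000 to 2000, 0.20 for 407 of 2000 to 4000, 0.32 for 616 of 4000 to 8000 and 0.44 for 433 over 8000. From the shortest to the longest class the median was 0.11, 0.45, 0.36, 0.43 and 0.45 against the EDL libraries of low index. Against those of high index it was -0.23, -0.11, 0.07, 0.19 and 0.40, so the steady rise with length was seen against EDL 2 and 4. Number series and muscle cannot be told apart here, and no direction is drawn for ribosomal protein genes. Leaving out ribosomal protein genes and genes under 1000 exon bases, 955 genes passed, 740 higher and 215 lower.

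The DIO libraries gave the contrast again in other samples. Their number series are those of the lean libraries of each muscle, so number series and muscle cannot be told apart here either. Ttn was at 6652 and 7075 CPM in DIO soleus 1 and 2 and at 13211 to 15554 CPM in DIO soleus 3 to 5. The index ran from -0.85 to 1.72 over the DIO EDL libraries. Of the same 1622 genes, 1033 passed as deposited (63.7%), 846 higher (52.2%) and 187 lower (11.5%) in soleus, and 957 after rescaling (59.0%), 466 higher (28.7%) and 491 lower (30.3%). After rescaling, 783 genes passed in the same direction in DIO and lean, which is 81.8% of the DIO and 84.5% of the lean calls, and 1 gene passed in opposite directions. Tnni1 averaged 1456 ± 164 CPM in DIO soleus and 6.80 ± 5.61 CPM in DIO EDL, Tpm3 2908 ± 241 CPM in DIO soleus and 35.7 ± 11.5 CPM in DIO EDL and Mstn 10.7 ± 6.54 CPM in DIO soleus and 72.9 ± 9.53 CPM in DIO EDL. The rescaled log2 differences in DIO were 7.497 for Tnni1, 5.95 for Tpm3, 3.99 for Casq2, -2.23 for Casq1 and -3.27 for Mstn. All 5 slow and 3 fast contractile genes passed in their lean direction in DIO on both scales. A few genes named above did not pass in DIO after rescaling. Ttn had an adjusted p of 0.13, Nfatc2 a log2 difference of 0.01 (adjusted p = 0.97), Fabp4 one of 0.50 (adjusted p = 0.38), Aco1 one of 0.27 (adjusted p = 0.23) and Atp5c1 one of 0.35 (adjusted p = 0.068).

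The difference of the differences was then tested with the interaction of muscle and diet over all 19 libraries. In limma no gene passed an adjusted p of 0.05 on either scale, 33 genes had an unadjusted p under 0.05 as deposited and 41 after rescaling, and the lowest adjusted p was 0.31 as deposited and 0.78 after rescaling. A gap between muscles that depends on diet was thus not detectable with these libraries, which does not show that the gaps are equal.

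**Figure D5:**
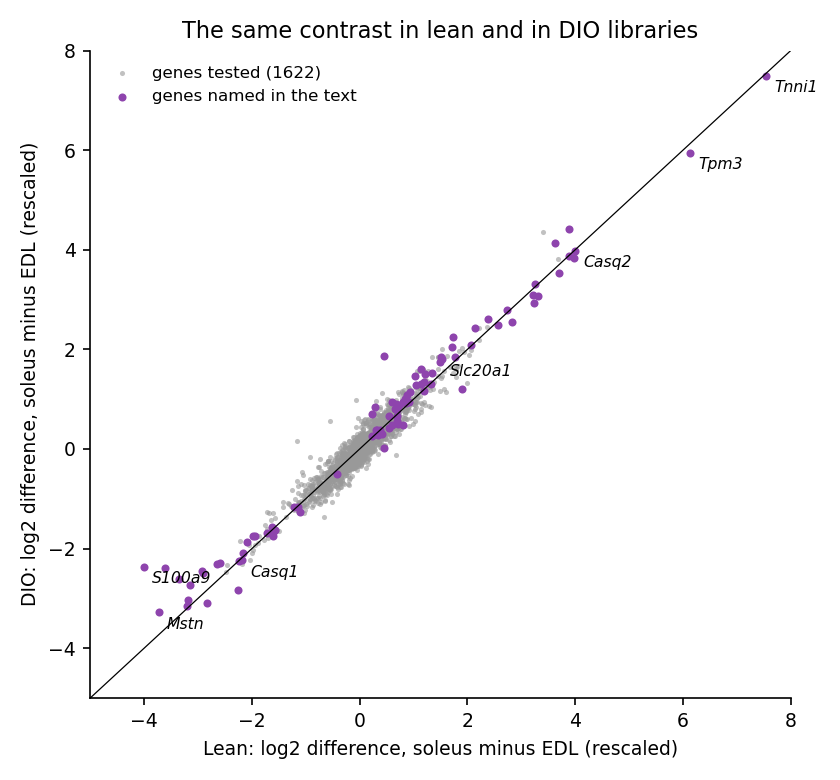
Rescaled log2 difference, soleus minus EDL, in DIO libraries (vertical) against lean libraries (horizontal) for each of the 1622 genes, with the genes named in the text in purple and the line of equal values. Tnni1 lies at 7.497 in DIO and 7.54 in lean and Mstn at -3.27 in DIO and -3.73 in lean, and S100a9 is farther from the line at -2.37 in DIO and -4.01 in lean.

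Lean red gastrocnemius, whose libraries share the number series of soleus and an index of 1.16 to 1.41, allowed a contrast within that series. It uses the same soleus libraries, so its values are set beside those against EDL with no test between them. Soleus against gastrocnemius gave 880 genes as deposited (54.3%), 616 higher (38.0%) and 264 lower (16.3%) in soleus, and 795 after rescaling (49.0%), 403 higher (24.8%) and the rest lower (24.2%). Of the slow contractile list 4 of 5 were higher and all 3 fast genes were lower in soleus on both scales. Tnni1 averaged 1594 ± 162 CPM in soleus and 159.8 ± 24.1 CPM in gastrocnemius (log2 difference 3.22 ± 0.11, adjusted p = 5.3e-09), and Tpm3 averaged 3802 ± 221 CPM in soleus and 378 ± 44.5 CPM in gastrocnemius (log2 difference 3.24 ± 0.09, adjusted p = 9.2e-10). In both genes the gastrocnemius mean was above every EDL library. Casq2 differed from gastrocnemius by a log2 difference of 2.14 ± 0.15, adjusted p = 6.6e-07, Casq1 by a log2 difference of -1.17 ± 0.08, adjusted p = 6.1e-07, Prkag3 by a log2 difference of -2.68 ± 0.23, adjusted p = 2.9e-06, Mstn by a log2 difference of -2.69 ± 0.21, adjusted p = 1.4e-06 and Prox1 by a log2 difference of 2.32 ± 0.10, adjusted p = 2.2e-08.

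Some genes stood otherwise against gastrocnemius than against EDL. Ryr3 averaged 2.98 ± 0.662 CPM in soleus and 3.49 ± 1.10 CPM in gastrocnemius (log2 difference -0.22 ± 0.18, adjusted p = 0.34), both below every EDL library. Tbx15 averaged 203 ± 12.9 CPM in soleus and 224 ± 17.8 CPM in gastrocnemius (log2 difference -0.24 ± 0.07, adjusted p = 0.015), with both means below every EDL library. Car3 averaged 2259 ± 234 CPM in soleus and 1586 ± 81.3 CPM in gastrocnemius and was higher in soleus there (log2 difference 0.41 ± 0.08, adjusted p = 0.0011), the reverse of its direction against EDL. Actc1 averaged 33.0 ± 8.21 CPM in soleus and 61.5 ± 36.0 CPM in gastrocnemius and did not pass after rescaling (log2 difference -0.84 ± 0.33, adjusted p = 0.052). Of the endothelial and pericyte markers, 1 of 8 was higher against gastrocnemius after rescaling, where 7 were against EDL. Among the ribosomal protein genes, 12 of 18 were higher and 2 lower against gastrocnemius as deposited, and 2 higher and 2 lower after rescaling. Ttn, at 13230.3 to 15069 CPM in gastrocnemius, did not pass in this contrast (log2 difference -0.42 ± 0.24, adjusted p = 0.17).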

How the data were processed

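Poly(A) RNA was sequenced in pairs of 100 nucleotide reads with a strand-marking kit, per the labels' protocols, and FastQC, STAR, HTSeq and DESeq2 are named in the submitters' processing notes, without versions. The sources used here do not state the genome build or the strand setting. Values were deposited as CPM: the authors divided each gene's reads by the library's total, and all values are whole multiples (within 0.001 read) of 1 read, so whole read counts were recovered. Overlapping genes and genes with near-identical copies may share reads. Of 205 columns, 1 matched no sample and was not used, 1 incomplete gene was dropped, and 13139 of 13153 genes matched GENCODE M21 (GRCm38).

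Genes averaging at least 10 CPM over the 9 libraries entered limma 3.58.1 (R 4.3.3), fitted on log2(CPM + 1) (pseudocount 1) with a trended variance, Benjamini-Hochberg over all 1622 genes, two-sided, threshold 0.05. Each contrast was fitted alone. The rescaled fit divides each library by a median-of-ratios factor, and fold changes of genes near the pseudocount are understated. edgeR 4.0.16 (quasi-likelihood, TMM) and DESeq2 1.42.0 were run on the recovered counts as alternatives, and the fits were tested on simulated data. Replicate libraries differed by more than sampling noise. Named genes are the 12 largest rises and the 12 largest falls with at least 50 CPM in the higher muscle and no overlap, leaving out predicted and ribosomal protein genes, plus the 6 of lowest adjusted p in each list; exceptions are marked, and some genes that the rule or the lists hold are not reported here. The members and lists were chosen with earlier results of these data known. Promoter sequences are from RefSeq (GRCm38.p6), and all 7 genes matched.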

Additional observations from a re-analysis of the deposited data

Results flagged for a closer look

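In 92 named genes, or 184 sets of lean soleus or EDL libraries, 9 sets held a library far from the rest. Chance flags about 1 in 20, so this is about as many as chance alone would give. In EDL 1, Slc16a1 was at 28.7 CPM, against 49.4 to 53.2 CPM in the other EDL libraries. In EDL 3, S100a8 was at 203 CPM, against 0.7101 to 32.6 CPM, beside the erythroid genes given above, and Nfatc2 was at 19.0 CPM, against 12.7 to 13.3 CPM. In EDL 4, Mstn was at 60.4 CPM, against 84.3 to 88.2 CPM, Kcnc4 at 84.3 CPM, against 54.3 to 57.3 CPM, and Dkk2 at 3.20 CPM, against 0.812 to 1.11 CPM. In soleus 3, Fam129a was at 157 CPM, against 109 to 119 CPM. In soleus 5, Rxra was at 111 CPM, against 99.9 to 103 CPM, and Pdlim5 at 732 CPM, against 843 to 869.8 CPM. Of these 9 genes, only S100a8 missed the threshold when any of the 9 lean libraries was left out.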

How the results depend on the processing

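Of 92 genes named with values, 88 passed with all libraries and CPM as deposited. Of these, 78 kept direction and call under each of 22 settings that tested them, 75 of them under all 22 (5 genes drop out with short genes), and none of the 88 reversed. The 3 that missed the threshold when 1 library was left out were Slc20a1, S100a8 and S100a9. Of the 4 that did not pass, Ndufc1 (0.58 as deposited) was at -0.45 and Atp5e (0.52) at -0.38 without the EDL libraries of low index, Car2 (0.73) was at -0.0496 by edgeR and -0.0491 by DESeq2, and Rapsn (-0.14) ran from -0.254 to 0.0318 with 1 library left out, positive without EDL 4, and was at 0.20 without the EDL libraries of high index. For lean soleus against EDL, the count of 965 (739 higher, 226 lower) became 1759 (1395 and 364) with no filter, which tests more genes. It split into 468 higher and 459 lower after rescaling, 475 and 449 by edgeR, and 484 and 483 by DESeq2. Of the genes called after rescaling, edgeR called 903 and DESeq2 925 in the same direction. Settings added after the data were seen gave 490 genes (360 higher, 130 lower) without the soleus libraries of high Ttn, a fit with fewer libraries, of which 483 were among the 965, and 522 lower with the index as a covariate on rescaled CPM. Leaving out 1 library gave 864 to 1004 genes. For DIO the count of 1033 (846 and 187) became 1791 (1506 and 285) with no filter, and the split was 466 and 491 after rescaling, 449 and 492 by edgeR, and 458 and 503 by DESeq2. For soleus against gastrocnemius, 399 were lower with no filter, 403 higher after rescaling and 404 lower by DESeq2, against 616 higher and 264 lower as deposited. The cause of these shifts in split was not tested beyond the rescaling itself. The interaction gave 0 genes with CPM as deposited, after rescaling, with a pseudocount of 5 and without each library in turn; the other settings were not run for it. No paired analysis was possible because the labels give no replicate numbers that tie a soleus library to an EDL library. With 16.3 M reads in the shallowest lean library, 10 CPM is over 100 reads, and replicate libraries differed by more than sampling noise.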

Other observations

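Several genes with a mean of under 50 CPM in both muscles, below the level set for the largest differences and named here after their values were seen, were many times higher in soleus. Rp1, best known as a microtubule protein of photoreceptors, was at 26.4, 27.6, 32.1, 28.6 and 26.2 CPM in the soleus libraries and 0.492, 0.456, 0.621 and 0.888 CPM in EDL (log2 difference 3.99 ± 0.14, adjusted p = 7.5e-09). It was also low in gastrocnemius, at a mean of 3.27 CPM. Dkk2, a secreted modulator of Wnt signalling, averaged 33.6 ± 7.60 CPM in soleus and 1.52 ± 1.12 CPM in EDL (log2 difference 3.62 ± 0.25, adjusted p = 4.4e-07). Dach2, a transcriptional cofactor linked to the nerve supply of muscle, averaged 23.9 ± 5.35 CPM in soleus and 1.27 ± 0.803 CPM in EDL (log2 difference 3.31 ± 0.25, adjusted p = 9.1e-07). Lrrc52, an accessory subunit of a potassium channel known from testis, averaged 21.4 ± 6.78 CPM in soleus and 1.85 ± 0.735 CPM in EDL (log2 difference 2.73 ± 0.25, adjusted p = 3.6e-06), and Tsga10, a gene known from testis, averaged 34.6 ± 6.26 CPM in soleus and 5.63 ± 0.763 CPM in EDL (log2 difference 2.14 ± 0.12, adjusted p = 7.8e-08). In all 5 genes every soleus library lay above every EDL library. They were picked for this gap and reached the 10 CPM filter only through soleus, so their lean separation and p-values follow from the choice. In the DIO libraries each passed in the same direction, by 3.83 for Rp1, 4.13 for Dkk2, 3.08 for Dach2, 2.78 for Lrrc52 and 2.43 for Tsga10 (rescaled log2 differences).

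Sms, the synthase of spermine, the polyamine that Smox oxidises, was also lower in soleus. It was at 50.9, 64.1, 46.9, 61.7 and 56.9 CPM in soleus and 219, 255, 228 and 175 CPM in EDL (log2 difference -2.24 ± 0.14, adjusted p = 2.8e-07), beside the fall of Smox given above. Sms was named after its values were seen.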
